A study of Mus musculus with 8 samples.

Results

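The genes of cholesterol synthesis, uptake and efflux were examined in hepatic stellate cells, the liver mesenchymal cells that store vitamin A, of mice with diet-induced steatohepatitis (MASH). The set was defined by function, with earlier results of these data known. It comprised 28 genes: the mevalonate and sterol enzymes, the SREBP2 control genes, and genes of lipoprotein uptake and LXR-driven efflux. All 28 symbols have a mouse Ensembl identifier in GENCODE M21, and 1 of them, Insig2, lies in the 1933 gene rows that were analysed. The other 27, which include Srebf2, Scap and Insig1, were not analysed here. The values below therefore describe 1 control gene of the pathway and not the pathway.

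Per the labels, male mice received a Western diet (21% fat, 20% protein, 50% carbohydrate) from 4 weeks of age for 20 weeks and were analysed in week 24. The groups were 4 libraries from AREL1HSC-KO mice, in which the ubiquitin ligase gene AREL1 was deleted in stellate cells (KO), and 4 from AREL1fl/fl mice (fl/fl), the floxed controls. All 8 libraries share the sex, the diet and its length. The Cre driver, and whether the controls carried it, are not given in the sources used here, nor is it stated whether a library is 1 mouse or a pool. P-values thus rest on these 8 libraries alone, and the spread among them may be technical. In the edgeR test used below, the spread of each gene is also moderated by that of the other tested genes. The deletion could not be checked on these counts, because Arel1 was not analysed here.

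Cells keep their cholesterol within narrow limits by a feedback loop in the endoplasmic reticulum. When sterols are scarce, the escort protein SCAP carries the transcription factor SREBP2 to the Golgi, where it is cut and released to switch on the genes of sterol synthesis and lipoprotein uptake. When sterols are plentiful, the membrane proteins INSIG1 and INSIG2 hold the SCAP-SREBP complex back in the endoplasmic reticulum. Insig1 is itself a strong SREBP target, while Insig2 is known as the isoform that depends less on SREBP, and in liver one of its promoters is known to be repressed by insulin. Excess sterol is turned into oxysterols, which activate LXR and its efflux transporters, or is stored as esters. In stellate cells, cholesterol loading is known to sensitise the cells to profibrotic signals.

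Insig2 is transcribed from several start sites, and the gene-level counts used here add the reads of all of them. Its 3 start regions in the RefSeq table (assembly GRCm38.p6, minus strand of chromosome 1) are shown for that reason, each as 300 bases, 250 before to 50 after the start, read 5′ to 3′. Capitals mark the motifs found. These were the NF-Y box CCAAT and the Sp1 box GGGCGG, searched on both strands, so that ATTGG and CCGCCC also appear.
Upstream start, chr1:121332540-121332839: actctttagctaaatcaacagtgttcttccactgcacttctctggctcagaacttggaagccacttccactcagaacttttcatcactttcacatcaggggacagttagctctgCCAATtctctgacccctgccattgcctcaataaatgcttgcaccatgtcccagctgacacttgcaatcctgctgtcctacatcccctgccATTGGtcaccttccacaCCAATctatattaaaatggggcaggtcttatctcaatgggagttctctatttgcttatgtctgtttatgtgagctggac
Middle start, chr1:121327975-121328274: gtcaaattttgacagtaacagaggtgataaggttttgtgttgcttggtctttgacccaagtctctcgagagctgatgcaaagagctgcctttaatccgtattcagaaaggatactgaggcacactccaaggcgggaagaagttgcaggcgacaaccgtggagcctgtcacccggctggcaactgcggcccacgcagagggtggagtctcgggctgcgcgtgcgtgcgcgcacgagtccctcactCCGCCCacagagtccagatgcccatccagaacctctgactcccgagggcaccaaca
Downstream start, chr1:121327629-121327928: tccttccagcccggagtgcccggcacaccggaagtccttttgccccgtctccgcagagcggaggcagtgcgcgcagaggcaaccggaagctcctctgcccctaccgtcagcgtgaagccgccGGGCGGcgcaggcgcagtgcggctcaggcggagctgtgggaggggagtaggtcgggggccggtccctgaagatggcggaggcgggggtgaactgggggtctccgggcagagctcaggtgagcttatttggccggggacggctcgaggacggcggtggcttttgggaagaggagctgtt
Each of the 3 starts coincides with the start of a protein-coding Insig2 transcript in GENCODE M21, which lists 14 transcripts of the gene.

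The start regions differ in composition. The upstream region holds 46.0% G and C and 0 CG dinucleotides, the middle one 57.0% and 17, and the downstream one 69.3% and 28, against medians of 52.7% and 7 over all 32851 regions of the table. The upstream region holds 3 CCAAT boxes and no GGGCGG. The other start regions hold 1 GGGCGG each and no CCAAT. Of all regions, 37.4% hold a CCAAT box and 35.7% a GGGCGG. None of the 3 holds the full sterol regulatory element (in 0.0913% of all regions), its shorter consensus TCACNCCAC (1.24%), the LXR direct repeat with a spacer of 4 bases (0.0152%) or the E-box CACGTG (7.15%). These are matches of letters within the regions, and they were not tested for binding.

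The fl/fl libraries held 17619387 to 19663030 reads assigned to genes, and the KO libraries held 19271004 to 25165289. Unmapped reads made up 1.04% to 1.19% in fl/fl and 1.44% to 1.58% in KO. The part of this difference in the results was not tested. Levels are given as CPM, reads scaled to the gene-assigned total of a library after TMM adjustment. The TMM factors were computed on the 420 tested genes, from rows that held 3.20% to 3.28% of that total. They were 0.980 to 0.996 in fl/fl and 1.00 to 1.02 in KO. Of 420 genes with enough reads to test, 158 (37.6%) differed between KO and fl/fl (edgeR quasi-likelihood test, adjusted p under 0.05), 77 higher (18.3%) and 81 lower (19.3%) in KO. Of 24 markers of stellate cells and fibroblasts listed, 5 (Col3a1, Col5a2, Col6a3, Dpt and Prrx1) were in the rows, and all 5 were lower in KO by this test. Their levels summed to 1198 to 1261 CPM in the fl/fl libraries and to 1067 to 1085 CPM in the KO libraries. Most of this sum came from Col3a1 (mean 485 CPM in fl/fl and 439 in KO) and Col5a2 (673 and 589), with log2 fold changes of -0.14 and -0.19. Dpt (18.7 and 6.76 CPM) and Col6a3 (21.2 and 12.8 CPM) fell by more, with log2 fold changes of -1.47 and -0.73. Prrx1 was at 30.6 to 35.5 CPM in the fl/fl libraries and at 25.1 to 30.4 CPM in the KO libraries. The stellate markers Lrat, Des and Reln were not analysed here, so the cell type was not checked on them. Of 9 hepatocyte markers, 3 were in the rows. C4bp had 0 reads and Aox3 had 2 reads over the 8 libraries. The only cholangiocyte marker in the rows, Pkhd1, had 1. Serpinc1, the other hepatocyte marker in the rows, and the T cell gene Cd247 each share exon bases with a gene on the opposite strand in GENCODE M21, and their joint and strand counts differ widely. Serpinc1 had 6 to 17 joint reads per library but 174 to 274 when the strand columns were added, and Cd247 had 0 to 2 against 218 to 399. The share of those reads that belongs to either gene is not known, so their levels are uncertain. The part of these marker levels in the results below was not tested.

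Insig2 (ENSMUSG00000003721), 1 of the pair of INSIG proteins that retain SCAP, was clearly expressed and stood at nearly the same level in every library. In fl/fl it was at 50.9, 51.4, 51.3 and 52.2 CPM in replicates 1 to 4, from 989, 901, 888 and 912 reads. In KO it was at 49.7, 51.6, 50.1 and 50.1 CPM, from 1214, 1324, 1031 and 977 reads. The groups overlapped, since on the TMM scale KO replicate 2 lay above 3 of the 4 fl/fl libraries. The other 3 KO libraries lay below every fl/fl library on that scale, an order that did not hold with library totals alone.

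The mean over the 4 fl/fl libraries was 51.4 ± 0.546 CPM, and over the 4 KO libraries it was 50.4 ± 0.844 CPM (SD, n = 4 each). The difference did not pass the test (log2 fold change -0.030, SE 0.036, edgeR adjusted p = 0.549, unadjusted p = 0.415). As a percentage it was -2.06%, with a 95% interval of -6.96% to 3.11%. These limits hold for TMM scaling and joint counts. Over the alternatives the lowest lower limit was -0.15 on the log2 scale (forward-strand counts) and the highest upper limit was 0.097 (upper-quartile factors). The count of set members called was thus 0 of 1 with edgeR, which called 37.6% of all tested genes. It was also 0 with DESeq2, which called 131 of the 420. An exact two-sided permutation test over the libraries gave p = 0.114 for the difference in mean log2 CPM of -0.031 (n = 4 per group, smallest possible p 0.0286). The log2 fold change was 0.021 under upper-quartile scaling and 0.0022 with library totals alone, so the direction of this small difference depends on the scaling.

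**Figure D1:**
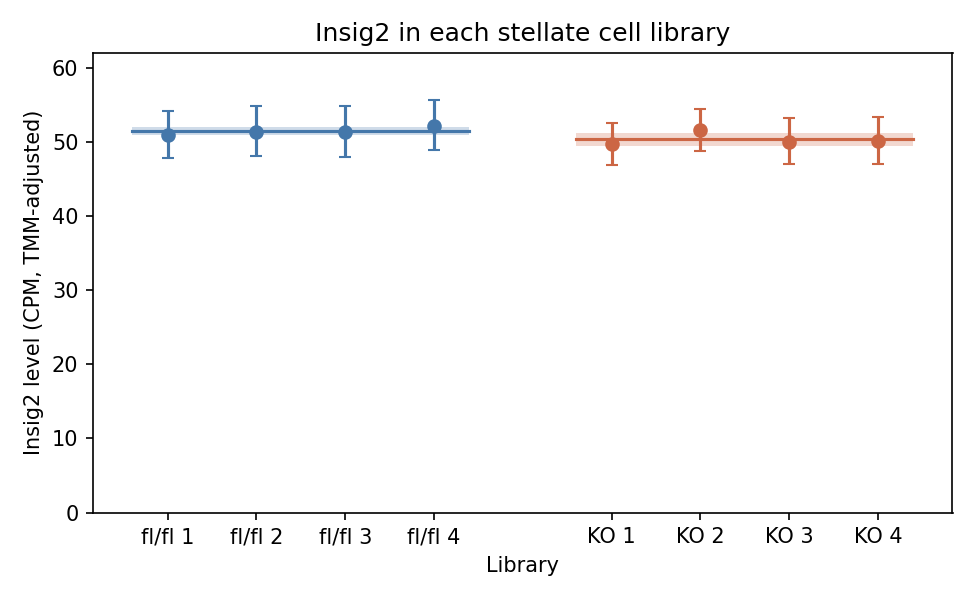
Insig2 level (CPM, TMM-adjusted) in each fl/fl and KO library. Points are libraries, bars are 95% Poisson counting intervals, lines are group means and bands are 1 SD; all 8 points lie between 49.7 and 52.2 CPM and every counting interval overlaps the others.

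Libraries of the same genotype differed in Insig2 by no more than counting alone would give. The coefficient of variation was 1.06% in fl/fl and 1.68% in KO, where the read numbers alone give 3.30% and 2.99%. Around an equal share of reads, chi-square per degree of freedom was 0.105 in fl/fl and 0.353 in KO. The 95% Poisson intervals of single libraries began between 46.9 and 48.9 CPM and ended between 52.5 and 55.7 CPM, and they cover counting error only. The fl/fl replicate 4 stands apart from the other fl/fl libraries over genes with 20 reads or more in a pair of libraries. Its pairs gave 3.37 to 3.53 chi-square units per degree of freedom, where pairs of the others gave 1.39 to 1.82. This replicate had the highest Insig2 level of the 8 libraries. Without it the log2 fold change was -0.025 (edgeR adjusted p = 0.643).

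Reads of Insig2 fell on both strands alike. The forward strand held 424 to 670 reads per library and the reverse strand 438 to 655, a reverse share of 48.4% to 54.2%. Each strand column gave a difference close to that of the joint counts, with a log2 fold change of -0.037 (edgeR adjusted p = 0.676) on the forward strand and -0.027 (adjusted p = 0.710) on the reverse. Nearly all of these reads entered the joint count, 8236 of 8246 over the 8 libraries. The strand columns thus divide the joint reads between them, and their closeness to the joint value is no separate check. In GENCODE M21 the gene overlaps 1 other, Gm37174, on the opposite strand and with no shared exon bases.

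Set against the other tested genes, Insig2 was of above-median abundance per length and among those that differed least. Per kilobase of its 3473 annotated exon bases it stood at 14.7 CPM, above 77.8% of the 419 genes with a length and above their median of 5.25 CPM per kilobase. Only 64 genes (15.2%) had a smaller absolute log2 fold change, for which the median over all genes was 0.12. Such a rank mixes the size of a difference with its error, and only 26.2% of the genes had a smaller SE than Insig2. The median signed log2 fold change of all genes was 0.0034. The plot of differences against level shows where Insig2 and the tested genes of a wider list, described below, lie.

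**Figure D2:**
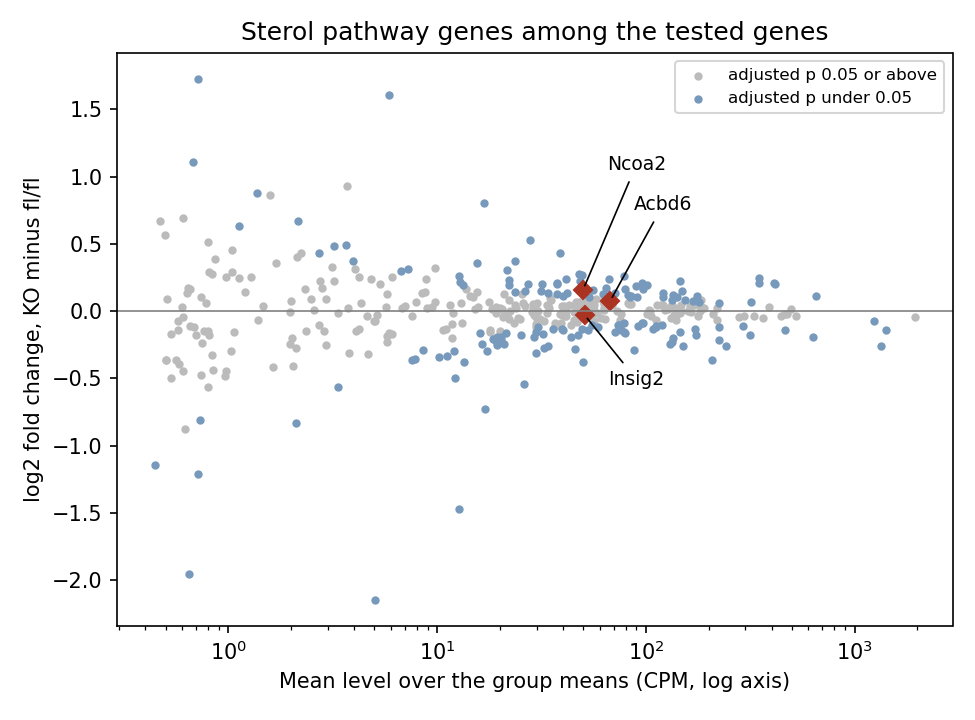
Log2 fold change (KO minus fl/fl) against mean level (CPM, log axis) for the 420 tested genes, with blue points at an adjusted p under 0.05. Red diamonds mark Insig2, the tested set member, and Acbd6 and Ncoa2, from a wider list of genes of sterol and lipoprotein handling. Insig2 lies next to the zero line at -0.030, Acbd6 at 0.075 and Ncoa2, which passed the test, at 0.16.

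A wider list of 61 genes of sterol and lipoprotein handling was looked up beside the set, and 3 were in the rows: Ncoa2, Acbd6 and Rxrg. Of these, 2 had enough reads to test, 1 rose and 0 fell, where 18.3% of all tested genes rose and 19.3% fell. None of the listed genes of SREBP processing, lipoprotein uptake or NADPH supply was analysed here.

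Ncoa2 encodes a coactivator that nuclear receptors recruit to switch on their targets. It was at 47.6, 47.6, 47.7 and 46.4 CPM in fl/fl replicates 1 to 4. In KO it was at 55.8, 52.6, 52.3 and 50.6 CPM. Every KO library lay above every fl/fl library, a separation that 132 of the 420 genes (31.4%) showed in either direction. The rise was 1.12-fold, from 47.3 ± 0.608 to 52.8 ± 2.15 CPM (SD, n = 4), a log2 fold change of 0.16 with an SE of 0.039 (edgeR adjusted p = 0.00178). In isolated cells measured in bulk, a change in RNA per cell and a change in the mix of cells cannot be told apart. The call was lost with reverse-strand counts (log2 fold change 0.11, SE 0.053, edgeR adjusted p = 0.125) and held in the 18 other alternatives. Among these were forward-strand counts (log2 fold change 0.22, SE 0.053, edgeR adjusted p = 0.00129). Each strand column holds only a part of the joint reads.

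Acbd6, a protein that binds long-chain acyl-CoA, was at 65.7, 60.9, 65.6 and 70.5 CPM in fl/fl replicates 1 to 4 and at 70.0, 65.2, 71.9 and 70.0 CPM in KO. The groups overlapped, and the difference did not pass the test (65.7 ± 3.89 against 69.3 ± 2.87 CPM, SD, n = 4), with a log2 fold change of 0.075 and an SE of 0.040 (edgeR adjusted p = 0.153). Acbd6 would have been called without fl/fl replicate 4 (log2 fold change 0.11, edgeR adjusted p = 0.00770), under upper-quartile factors (adjusted p = 0.0146) or with library totals alone (0.0329), within a range of 0.00770 to 0.580 over the alternatives. Rxrg, a partner receptor of LXR, had 0 reads in the 8 libraries, and the limit that a count of 0 allows (3 reads) corresponds to 0.117 to 0.173 CPM per library.

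Genes whose levels followed Insig2 closely over the 8 libraries were sought among 320 genes with a mean of at least 5 CPM. Near the top were Parp1, an enzyme of DNA repair (Pearson r = 0.88 of log2 levels), and Nabp1, a single-stranded DNA binding protein (r = 0.84). The median over the 320 genes was 0.024 and the lowest r was -0.84. These values are descriptions. On the forward-strand counts r was 0.10 for Parp1 and -0.26 for Nabp1. On the reverse-strand counts it was -0.045 for Parp1 and 0.11 for Nabp1. The likeness over 8 libraries was thus not seen again in either strand column for these genes.

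Parp1 (211.4 ± 3.10 CPM for fl/fl against 207.7 ± 2.44 CPM for KO; SD, n = 4) and Nabp1 (21.0 ± 0.395 against 20.4 ± 0.364 CPM) did not pass the test.

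The plot of the Insig2 difference under each setting gives the main value beside 19 alternatives. The log2 fold change ranged from -0.045, without KO replicate 2, to 0.021, with upper-quartile scaling, and the adjusted p from 0.374 to 0.973.

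**Figure D3:**
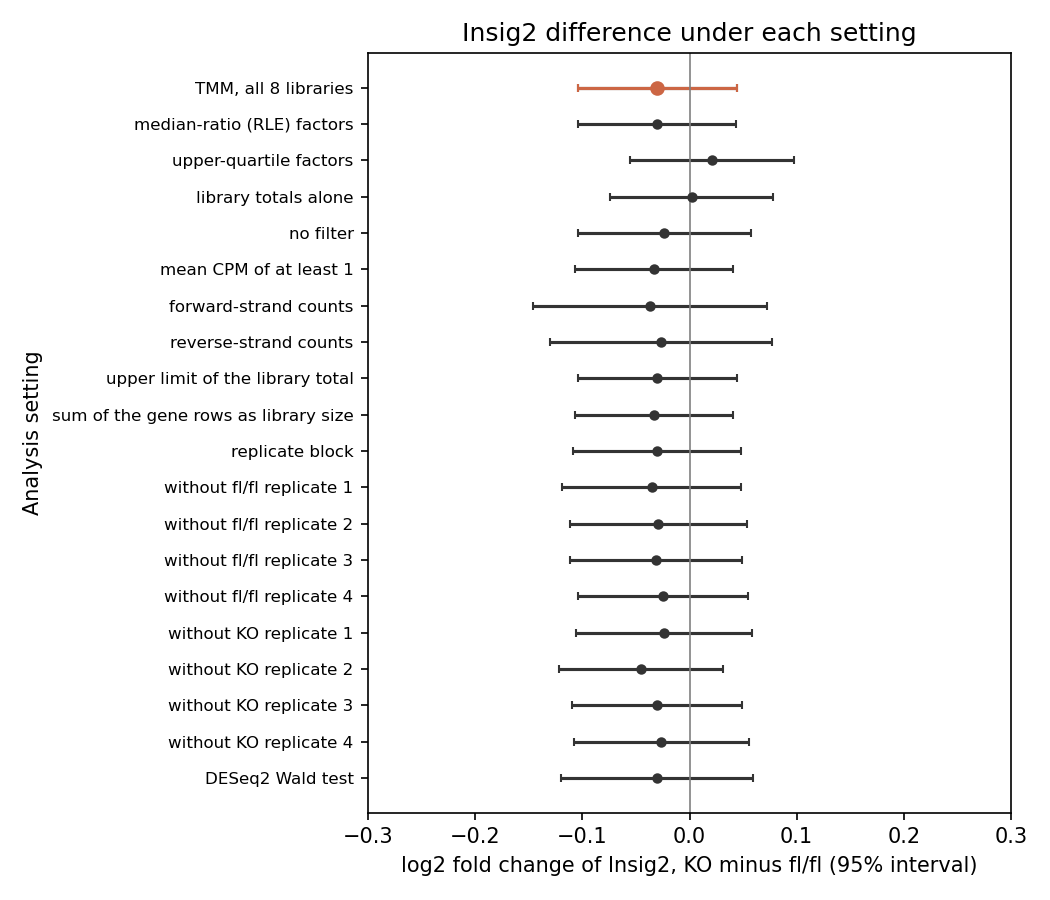
Log2 fold change of Insig2 (KO minus fl/fl, horizontal axis) with its 95% interval under each analysis setting, the main one in red at the top. All intervals include 0 and the widest, with forward-strand counts, runs from -0.15 to 0.072.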

How the data were processed

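Poly(A) RNA of OptiPrep-purified stellate cells was sequenced after a stranded mRNA kit, per the labels' protocols. For each library the authors deposited raw read counts per gene as STAR writes them, with 3 columns (forward, reverse and both strands together). Tools named in the submitters' processing notes are fastp, STAR 2.7.10a and DESeq2 1.38.0, with the builds GRCm38 and GRCm39. The sources used here do not say which build and annotation were counted. The 1933 gene rows shared by the 8 tables were analysed, 1830 of them with a GENCODE M21 symbol, all on chromosome 1. An incomplete last line was left out. Groups follow the sample titles. In 3 KO samples the genotype field has a different digit in the gene name.

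Library size was the gene-assigned total derived from the 4 summary rows (no-feature reads summed over the stranded columns, less 2 times those of the unstranded column and less the ambiguous reads of the stranded columns). This is a lower limit, and the upper limit was 2.51% to 2.65% higher. The shared rows held 3.20% to 3.28% of it. The either-strand counts were used because reverse-to-forward ratios were 0.985 to 1.02. Counts were filtered with filterByExpr (420 genes kept), TMM-scaled and tested in edgeR 4.0.16 (R 4.3.3) by the quasi-likelihood F test with Benjamini-Hochberg adjustment over these 420. The fit was tested on simulated data. SEs come from the F statistic. DESeq2 1.42.0 was an alternative. No pair of libraries within a group agreed within sampling noise (chi-square over genes with 20 reads or more, largest p = 2.59e-07).

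Members and lists were chosen with earlier results of these data known. All members with a row were named, the listed pathway genes with a row, and the 3 genes most like Insig2 (Pearson r of log2 of CPM plus 0.5, mean of at least 5 CPM), of which 1 is not reported here.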

Additional observations from a re-analysis of the deposited data

Results flagged for a closer look

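Single libraries far from the other 3 of their group were looked for with Dixon's 95% limit in the levels of the named genes, Insig2, Acbd6, Ncoa2, Parp1 and Nabp1 among them, which made 12 groups. Chance gives about 1 in 20 such groups. Ncoa2 in fl/fl replicate 4 exceeded the limit. It was at 46.4 CPM, where the remaining fl/fl libraries lay at 47.6 to 47.7 CPM, and its distance to the next library was 0.918 of the whole range. This level rests on 811 reads, and counting error was not part of the measure. With library totals alone it did not exceed the limit. No library stood apart in Insig2 by this measure.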

How the results depend on the processing

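Insig2 was not called under any of 19 alternatives, and its log2 fold change was negative in 17 of them. It turned positive with upper-quartile scaling (0.021) and with library totals alone (0.0022). Without 1 library at a time it ranged from -0.045 to -0.024. The alternatives share most of their reads, and the upper limit of the library total returned the main value (-0.030). The tally of 17 is thus not one of separate checks. The count of changed genes, 158, ranged from 108 (adjusted p under 0.01) to 191 (without fl/fl replicate 4). Upper-quartile scaling made 69.8% of the calls higher in KO and library totals alone 60.6%, against 48.7% with TMM. The log2 fold change of Parp1 turned to 0.026 with upper-quartile scaling, 0.0070 with library totals alone and 0.027 with reverse-strand counts. That of Nabp1 turned to 0.0095 with upper-quartile scaling and 0.025 with forward-strand counts. The correlation with Insig2 turned to -0.045 for Parp1 (reverse-strand counts) and -0.26 for Nabp1 (forward-strand counts). The cause of these turns was not tested.

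Replicate numbers are shared between the groups, but same-numbered libraries did not deviate together (r = -0.17, 0.080, -0.13 and -0.070 over the 420 genes), and no library correlated best with its own number. With the replicate number as a block, 150 genes were called, none of them Insig2 (log2 fold change -0.030, edgeR adjusted p = 0.575). Insig2 had 888 to 1324 reads per library, and the 95% interval of its difference spans -6.96% to 3.11%.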
